A study of Homo sapiens with 14 samples.

Results

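The human cysteine tRNAs examined here were the 11 tRNA-Cys-GCA loci among the 248 tRNA loci of the study's table of crosslink sites. A locus was taken from that table by name, with clusters under 40 nt apart joined, so that the 18 clusters named for cysteine tRNAs gave 11 loci of 316 in all. The study had listed a site only where enough counts were found in several experiments, so each of these copies was in the table because of counts in the same libraries. cDNA counts were summed on the strand of the locus from 100 nt 5′ to 25 nt 3′ of its clusters.

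All 14 libraries captured RNA linked to TRMT2A, the methyltransferase that makes 5-methyluridine at U54 of tRNAs, in HEK293 cells, a human embryonic kidney line, or HAP1 cells, a near-haploid human leukaemia line. In FICC-Seq (3 libraries per line) cells were grown with 100 µM 5-fluorouracil for 24 h, the fluorinated base traps the enzyme on its target, and endogenous TRMT2A was precipitated. In iCLIP (3 libraries per line) endogenous TRMT2A was crosslinked by UV light without 5-fluorouracil. In miCLIP (2 libraries, HEK293 only) cells were transfected with a FLAG-tagged TRMT2A in which a catalytic glutamate was replaced by alanine, which holds the enzyme on its substrate, harvested 24 h later and precipitated by the tag. The labels also give the condition of every library, FICC-Seq included, as untreated, although the study's protocol has 5-fluorouracil in FICC-Seq. Ectopic protein, tag and antibody therefore changed together with the method in miCLIP. The study calls the replicates biological, but neither it nor the labels state that they came from separate cultures, so p-values measure the spread between these libraries, which may be technical.

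Cysteine tRNAs carry the anticodon GCA, read the cysteine codons and are encoded by many gene copies that differ by few bases. Their T-arm is a stem of 5 pairs closed by a 7-base loop, whose first base is U54, the target of TRMT2A, and which also holds position 58, a site where tRNAs commonly carry 1-methyladenosine, a base that blocks reverse transcription. A cDNA that ends at a crosslinked base is assigned to the nucleotide before its start, so an enzyme held on U54 is read as counts at 53 or 54, whereas a stop at 58 needs no contact with U54.

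The sequences below are the genes of the 8 distinct forms among the 11 copies, from the first base to position 73, read from GRCh37. Reads of copies that share a form can be told apart only by bases outside the sequence shown. Capitals mark positions 54 to 58 of the standard tRNA numbering.
2-2, 2-3 and 2-4: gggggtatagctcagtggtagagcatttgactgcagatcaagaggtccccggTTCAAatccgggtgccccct
14-1: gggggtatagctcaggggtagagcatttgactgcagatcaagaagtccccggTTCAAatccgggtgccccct
8-1: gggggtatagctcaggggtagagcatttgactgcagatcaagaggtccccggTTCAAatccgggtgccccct
5-1: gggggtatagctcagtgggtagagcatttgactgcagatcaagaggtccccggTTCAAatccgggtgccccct
21-1: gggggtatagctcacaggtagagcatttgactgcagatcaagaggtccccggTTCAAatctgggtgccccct
6-1: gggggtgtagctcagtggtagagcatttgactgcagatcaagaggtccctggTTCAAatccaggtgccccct
9-1 and 9-4: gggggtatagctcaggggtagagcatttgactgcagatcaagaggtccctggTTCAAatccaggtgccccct
12-1: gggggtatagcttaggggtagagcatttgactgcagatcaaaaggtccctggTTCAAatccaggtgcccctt

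All 11 copies had the same T-loop and the anticodon GCA. With positions counted from 1 at the first base of the gene, not in the standard numbering, and with the base of 2-2 first, 8-1 differed from 2-2 by T16G alone and 14-1 by T16G and G44A. The copies 9-1 and 9-4 carried T16G with C50T and G62A, partner bases of the T-stem, and 6-1 carried A7G with the same pair. The copy 12-1 was the most distant, with 6 changes (C13T, T16G, G42A, C50T, G62A and C71T). In 21-1, G15C and T16A lay in the D-arm and C61T changed only the 3′ strand of the T-stem, whereas 5-1 had 1 base more than the others.

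The copies lay on 5 chromosomes of hg19. On chromosome 17 were 14-1 (chr17:37017937-37018008, minus strand), 2-2 (chr17:37023898-37023969, plus), 2-3 (chr17:37309987-37310058, minus) and 2-4 (chr17:37310744-37310815, minus). On chromosome 7 were 12-1 (chr7:149344046-149344117, minus), 21-1 (chr7:149361915-149361986, plus) and 9-4 (chr7:149404760-149404831, plus). On chromosome 3 were 6-1 (chr3:131947944-131948015, minus) and 9-1 (chr3:131950642-131950713, minus), while 8-1 lay at chr14:73429679-73429750 (plus) and 5-1 at chr15:80036997-80037069 (plus). In the GENCODE annotation 6-1 and 9-1 lay in an intron of CPNE4 and 2-3 in an intron of PLXDC1, each on the strand of the host gene, and the other 8 copies overlapped no annotated gene.

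A read that began just after position 53 or 54 needed bases beyond position 73 to be unique in the genome for 10 of the 11 copies. The shortest unique read after position 54 was 18 nt for 12-1, which ended inside the gene, 20 to 23 nt for 9 copies, and 28 nt for 2-4, which had to reach 9 bases past position 73. After position 58 the shortest unique read of 12-1 was 20 nt and had to reach 5 bases past position 73. The longest possible insert was 41 nt. The study kept only uniquely mapping reads, so a cDNA from a mature tRNA, which ends in the added CCA, and one from a precursor had different chances of being placed. The part of this in the counts per copy was not tested.

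The libraries held 7002 to 104605 counts, and a count of 0 allows up to 428 CPM, the usual scaling of a count by the library total, in the smallest library and 28.7 CPM in the largest. These limits and all intervals on shares (95% exact binomial) cover counting error only. Of the FICC-Seq libraries, replicate 2 of both lines stood apart from replicates 1 and 3 in the cysteine counts, as given below with each result, and both carried the same fixed barcode bases per the labels. Replicates 1 and 3 of FICC-Seq HEK293 also shared a barcode label, but their counts over loci differed beyond sampling noise (chi-square 451 with 210 degrees of freedom), and they were kept as separate libraries.

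Cysteine loci held a small part of the tRNA counts in FICC-Seq, more in iCLIP and most in miCLIP. In FICC-Seq HEK293 they made up 0.255%, 0.716% and 0.230% of the counts on tRNA loci in replicates 1, 2 and 3, and in HAP1 0.156%, 0.774% and 0.200%. In iCLIP the shares were 0.867%, 1.37% and 1.26% in HEK293 and 0.696%, 1.44% and 0.729% in HAP1. In both miCLIP libraries, with 6.08% and 5.19%, the share was above that of every other library. On this scale the groups of FICC-Seq and iCLIP did not overlap in HEK293, whereas in HAP1 the FICC-Seq replicate 2 lay above 2 of the 3 iCLIP libraries.

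The mean share was 0.389% ± 0.279 (SD, n = 6) in FICC-Seq and 1.06% ± 0.334 (SD, n = 6) in iCLIP, a difference of -0.67 percentage points. An exact two-sided permutation test within cell lines gave p = 0.015, and adjusted p = 0.063 after the Benjamini-Hochberg method over the 9 planned tests on shares. The shift was therefore not past the threshold, though it was without FICC-Seq HEK293 replicate 1 or HAP1 replicate 2 (exact permutation adjusted p = 0.045 for each). Without both FICC-Seq libraries numbered 2 the difference was -0.85 percentage points (exact permutation p = 0.010). miCLIP exceeded FICC-Seq in HEK293 by 5.23 percentage points and iCLIP in HEK293 by 4.47 (exact permutation p = 0.1 for each, the smallest p that 2 libraries against 3 allow, tests added after the data were seen). As a share of all counts of the library the differences were smaller, with -0.28 percentage points between FICC-Seq and iCLIP (exact permutation p = 0.08, adjusted p = 0.14), 2.85 between miCLIP and FICC-Seq and 2.55 between miCLIP and iCLIP. On that scale FICC-Seq HEK293 replicate 2, at 0.613%, lay above iCLIP HEK293 replicate 1, at 0.390%.

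**Figure D1:**
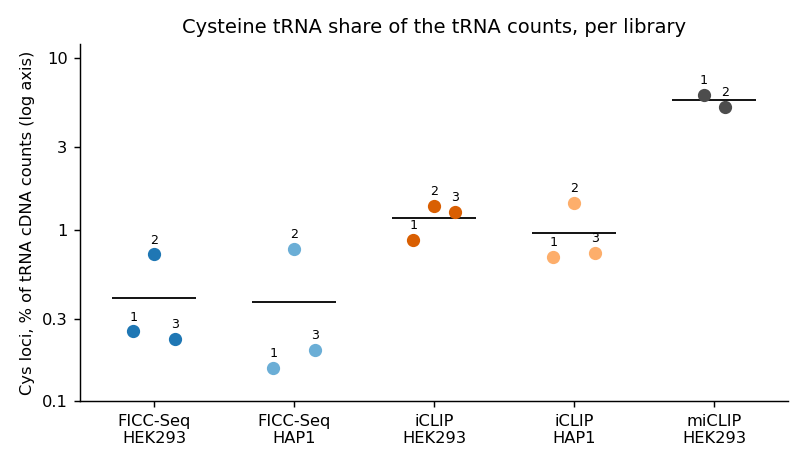
Share of the cDNA counts on tRNA loci that fell on the 11 cysteine tRNA loci, in percent on a log axis, with 1 point per library (replicate number above it) and a line at the mean of each experiment. Both miCLIP libraries sit above 5%, and replicate 2 is the highest FICC-Seq library in each cell line.

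Across the 14 libraries the 3 tRNA families whose log2 share of the tRNA counts had the highest Pearson r with that of cysteine were threonine (Pearson r = 0.96, Spearman's rho = 0.87), proline (0.95 and 0.90) and histidine (0.92 and 0.81). By rho the order differed, with glutamine first (0.92) and tryptophan and arginine above histidine (0.84 and 0.83). These are descriptions over 14 libraries of 5 experiments that share depth and total. Threonine loci rose from 0.577% ± 0.406 of the tRNA counts in FICC-Seq HEK293 (SD, n = 3) to 8.40% ± 0.347 in miCLIP (SD, n = 2), where cysteine had 0.4004% ± 0.274 and 5.63% ± 0.635. Tyrosine loci held 13.3% ± 1.58 in FICC-Seq HEK293 and 8.11% ± 0.519 in miCLIP, a lower share in miCLIP than in FICC-Seq. By the ratio of these means cysteine, at 14.1, ranked 7 of 22 families (initiator methionine and a locus of undetermined type counted apart), alanine, at 1.45, ranked 12 and tyrosine, at 0.608, ranked 20. Without FICC-Seq HEK293 replicate 2 the ratio of cysteine was 23.2, again at rank 7.

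Copies differed widely in level and in the experiment in which they were seen. Counts per copy were compared in 1 limma fit over the loci of the table, of which 281 passed a filter on low counts, all 11 cysteine copies included. Of these, 21-1 and 5-1 passed it only through their miCLIP counts. In a fit on FICC-Seq and iCLIP libraries alone, where 3 libraries rather than 2 had to reach the level, 6 copies did not pass (12-1, 21-1, 5-1, 8-1, 9-1 and 9-4). Log2 differences are given with their standard error, and adjusted p is from limma with Benjamini-Hochberg adjustment over the 281 loci.

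Against iCLIP, FICC-Seq counts were lower at 4 of the 11 cysteine copies and higher at none in HEK293 (14-1, 2-4, 21-1 and 9-1), where 31% of all loci tested were lower. In HAP1 they were lower at 4 copies (14-1, 2-4, 21-1 and 5-1) and higher at none, against 29.2% of all loci. The 4 of 11 copies called were a share close to that of all loci in both lines. At an unadjusted p under 0.05, 5 copies in HEK293 and 6 in HAP1 differed. The share of all loci at that threshold was not counted, so these numbers are not read as an excess. The median log2 difference over the 11 copies was -1.83 in HEK293 and -1.60 in HAP1, beside -0.23 and -0.37 over all loci tested, and both cysteine medians were the same with the copies at 0 set to their bound. With library totals as the scale the medians over all loci moved to 0.46 and 0.11, the calls over all loci went from 60 higher and 87 lower to 95 and 54 in HEK293, and the cysteine copies called lower in HEK293 fell to 2.

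The copy 2-4 gave the largest of these differences. Its counts were 0, 0 and 0 in FICC-Seq HEK293 and 0, 0 and 2 in FICC-Seq HAP1, against 19, 12 and 12 in iCLIP HEK293 and 5, 13 and 7 in iCLIP HAP1. No FICC-Seq library reached the level of any iCLIP library of its cell line. With 3 counts over the group as the floor, the scaled level was at least 50.4-fold lower in FICC-Seq HEK293 (limma adjusted p = 3.1e-07), and in HAP1 it was 62.8-fold lower with a counting interval of 15.7 to 547 (limma adjusted p = 6.5e-06). Its sequence is that of 2-2 and 2-3, and it was the copy that needed the longest read to be unique.

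The twin copies 2-2 and 2-3 were counted in FICC-Seq. At 2-2 the counts were 3, 29 and 5 in FICC-Seq HEK293, 6, 64 and 17 in FICC-Seq HAP1, 4, 11 and 4 in iCLIP HEK293 and 14, 18 and 6 in iCLIP HAP1. Replicate 2 held most of the FICC-Seq counts in both lines, and the groups overlapped. The log2 difference between FICC-Seq and iCLIP was -1.48 ± 0.95 (SE) in HEK293 and -1.60 ± 0.73 in HAP1 (limma adjusted p = 0.21 and 0.080). At 2-3 the counts were 8, 13 and 7, then 7, 18 and 9 in FICC-Seq, against 8, 6 and 6, then 0, 7 and 3 in iCLIP, with log2 differences of -1.45 ± 0.67 in HEK293 and -0.10 ± 0.77 in HAP1 (limma adjusted p = 0.078 and 0.92).

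The copy 14-1 was counted in every library. It had 16, 15 and 14 counts in FICC-Seq HEK293, 15, 42 and 25 in FICC-Seq HAP1, 19, 14 and 12 in iCLIP HEK293 and 13, 15 and 12 in iCLIP HAP1. In CPM, every FICC-Seq library lay below every iCLIP library of its line, with means of 1519 CPM ± 372 (SD, n = 3) in iCLIP HEK293 and 1422 CPM ± 215 in iCLIP HAP1, against 771 CPM ± 349 in FICC-Seq HAP1. The log2 difference was -1.83 ± 0.45 in HEK293 and -1.40 ± 0.42 in HAP1 (limma adjusted p = 0.0027 and 0.011), and with library totals as the scale it missed the threshold in both lines (adjusted p = 0.074 and 0.11).

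The other copies called rested on few counts and did not pass the filter with FICC-Seq and iCLIP alone. There 14-1 and 2-4 were the 2 copies called lower in each line. No FICC-Seq library reached the level at 2-4, so it entered that fit only through iCLIP, the group in which it was high. The call of 2-4 there supports nothing on its own. At 21-1 no count was found in FICC-Seq HEK293 and 0, 2 and 0 in FICC-Seq HAP1, against 1, 4 and 0 and then 0, 4 and 1 in iCLIP (limma adjusted p = 0.0088 in HEK293 and 0.016 in HAP1, the latter lost without FICC-Seq HAP1 replicate 1 or 3 or iCLIP HAP1 replicate 2). The scaled level was at least 5.86-fold lower in FICC-Seq HEK293 and 12.6-fold lower in HAP1, with a counting interval of 2.06 to 132. At 9-1 the counts were 2, 3 and 1 in FICC-Seq HEK293 and 4, 4 and 4 in iCLIP HEK293, a log2 difference of -2.76 ± 0.90 (limma adjusted p = 0.015, lost with library totals as the scale and without FICC-Seq or iCLIP HEK293 replicate 3), and in HAP1 they were 0, 6 and 2 against 0, 7 and 2 (log2 difference -2.37 ± 0.98, limma adjusted p = 0.053). At 5-1 the 0, 0 and 2 counts of FICC-Seq HAP1 stood against 4, 0 and 1 in iCLIP HAP1 (12.6-fold lower, counting interval 2.06 to 132, limma adjusted p = 0.0087), and in HEK293 the counts were 5, 2 and 6 against 2, 3 and 2 (limma adjusted p = 0.25).

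At 6-1 FICC-Seq was not lower in HEK293. Its counts were 11, 17 and 16 in FICC-Seq HEK293 against 2, 2 and 4 in iCLIP HEK293, a log2 difference of 0.47 ± 0.74 with an interval from -1.08 to 2.02 (limma adjusted p = 0.61). In HAP1 the counts were 4, 16 and 4 against 0, 7 and 1. At 12-1 they were 0, 6 and 0, then 1, 26 and 0 in FICC-Seq and 2, 4 and 0, then 0, 4 and 0 in iCLIP, so that replicate 2 held 32 of the 33 FICC-Seq counts and the groups overlapped. The copies 8-1 and 9-4 had log2 differences from -2.37 to -0.43 with limma adjusted p from 0.098 to 0.75, and at both copies FICC-Seq replicate 2 held the most counts in HAP1, with 26 of 30 and 17 of 17.

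Leaving out FICC-Seq replicate 2 changed how many copies were called. Without it 7 copies were lower in HEK293, beside 92 of all 289 loci tested. Without its HAP1 counterpart 7 were lower in HAP1, beside 88 of 268 loci. Without both libraries, an alternative chosen after seeing the data, 9 copies were lower in HEK293 and 7 in HAP1. Over all loci 94 of 271 were lower in HEK293 there and 88 of 271 in HAP1. The difference between the cell lines in the FICC-Seq against iCLIP change was past the threshold at 0 of the 11 copies (smallest limma adjusted p = 0.57, 0 at an unadjusted p under 0.05). Over all 281 loci tested 0 were higher and 0 lower, so the 0 of 11 is not particular to cysteine copies.

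**Figure D2:**
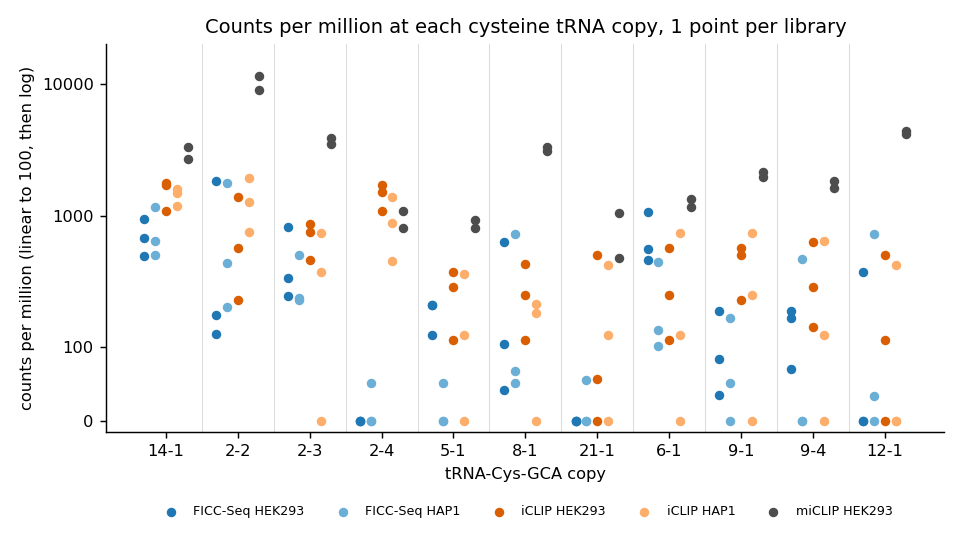
Level in CPM at each of the 11 cysteine tRNA copies, on an axis that is linear to 100 and logarithmic above, with 1 point per library coloured by experiment. The copy 2-4 is at 0 in all FICC-Seq HEK293 libraries and above 400 CPM in every iCLIP library, and the miCLIP points lie highest at most copies.

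In miCLIP all 11 cysteine copies had more counts than in FICC-Seq of HEK293, where 43.8% of all loci tested were higher. Each copy had every miCLIP library above every FICC-Seq HEK293 library in CPM. How many of all loci separated in this way was not counted. The copies 21-1 and 5-1 had entered the fit only through miCLIP, the group in which they were high. The count of 11 called and the separation at all 11 are therefore descriptions and support nothing on their own. The 2 experiments differ in the protein, tag, antibody and drug as well as in the trapping, which cannot be told apart.

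The highest copy in miCLIP was 2-2, with 445 and 930 counts and 10147 CPM ± 1777 (SD, n = 2), a log2 difference of 5.08 ± 0.69 from FICC-Seq (limma adjusted p = 2.5e-06). The most divergent copy, 12-1, followed with 171 and 431 counts, having been at 0, 6 and 0 in FICC-Seq HEK293, and its log2 difference of 6.53 ± 1.02 was the largest fitted (limma adjusted p = 1.2e-05). The copies 2-3 (151 and 366 counts), 8-1 (121 and 348) and 14-1 (105 and 349) came next, with log2 differences of 3.35 ± 0.50, 4.50 ± 0.72 and 2.36 ± 0.36 (limma adjusted p from 6.9e-06 to 1.4e-05).

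The copies with no count in FICC-Seq HEK293 were present in miCLIP. At 2-4 the counts were 42 and 84, at least 22.9-fold above FICC-Seq (limma adjusted p = 3.5e-07), and at 21-1 they were 41 and 50, at least 16.5-fold above (limma adjusted p = 1.3e-05 for a copy that entered the fit only through miCLIP). The 2-4 level in miCLIP, 940 CPM ± 193, was below its level in iCLIP HEK293, 1435 CPM ± 317, which held for no other copy. That order was read from the means only and was not tested.

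The smallest difference was at 6-1, where miCLIP had 52 and 122 counts and the log2 difference was 1.12 ± 0.47 (limma adjusted p = 0.035). It missed the threshold with library totals as the scale, with limma-trend, and without FICC-Seq HEK293 replicate 1 or replicate 3 (limma adjusted p from 0.12 to 0.32). At 9-1, with 83 and 206 counts in miCLIP, the log2 difference was 4.50 ± 0.72 (limma adjusted p = 1.4e-05). At 5-1, with 36 and 84 counts, it was 2.27 ± 0.59 (limma adjusted p = 0.0016). As 5-1 entered the fit only through miCLIP, that p supports nothing on its own. At 9-4, with 71 and 169 counts, the log2 difference was 3.69 ± 0.78 (limma adjusted p = 0.00025). It fell to 1.52 and missed the threshold when the study's clusters were counted in place of loci (limma adjusted p = 0.092).

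Between the cell lines in FICC-Seq, 5-1 alone was called, with 5, 2 and 6 counts in HEK293 and 0, 0 and 2 in HAP1, where 9.25% of all loci tested were lower in HAP1. The scaled level was 10.1-fold lower in HAP1, with a counting interval of 2.28 to 92.0 (limma adjusted p = 0.018). The call was lost on leaving out HEK293 replicate 1 or 3 or HAP1 replicate 1 or 2 (limma adjusted p from 0.057 to 0.087), and the copy did not pass the filter in a fit on FICC-Seq alone.

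**Figure D3:**
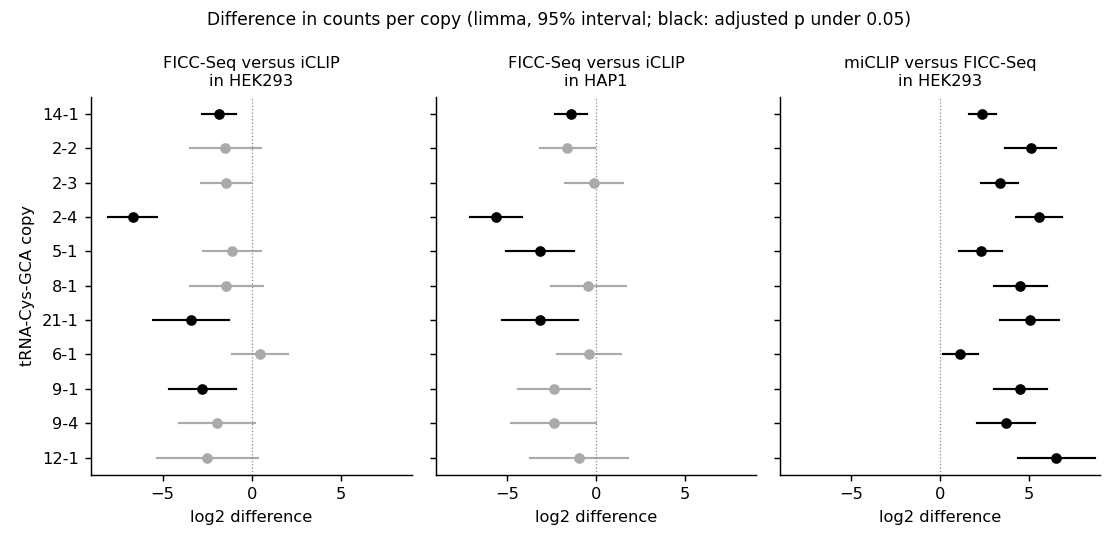
Log2 difference in counts at each cysteine tRNA copy with its 95% interval from limma, for FICC-Seq against iCLIP in HEK293 and HAP1 and for miCLIP against FICC-Seq in HEK293, black where adjusted p is under 0.05. Values at 2-4 and 21-1 against FICC-Seq HEK293 rest on 0 counts and depend on the offset of the fit, so the bounds of 50.4-fold and 5.86-fold lower given above apply instead.

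The position of the cDNA stops on cysteine tRNAs also differed between the methods. Counts at positions 53 and 54, next to the U54 target, made up 22.0%, 34.7% and 42.6% of the cysteine counts in FICC-Seq HEK293 and 45.7%, 29.5% and 38.1% in HAP1. In iCLIP they made up 0%, 17.9% and 2.08% in HEK293 and 0%, 22.9% and 2.94% in HAP1. Replicate 2 thus stood apart in iCLIP too, with 12 of the 13 counts at these positions in HEK293 and 19 of the 20 in HAP1. The lowest FICC-Seq library of each line was above every iCLIP library of that line, so the groups did not overlap.

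The mean was 35.4% ± 8.72 (SD, n = 6) in FICC-Seq and 7.64% ± 10.1 (SD, n = 6) in iCLIP, a difference of 27.8 percentage points. The exact permutation test within cell lines gave p = 0.005, the smallest the design allows, with adjusted p = 0.045 over the 9 planned tests and 0.055 when both tests added later were counted. It also missed the threshold without FICC-Seq HAP1 replicate 1 or 3 or iCLIP HEK293 replicate 1 or 3 (differences of 25.7 to 27.3 percentage points, adjusted p from 0.079 to 0.090). FICC-Seq and iCLIP libraries of the same number were also paired within a line as a replicate block. The exact permutation test then gave adjusted p = 0.056, which missed the threshold.

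Cysteine tRNAs had fewer stops at 53 and 54 than the other tRNAs. Over the 223 other tRNA loci whose position 54 could be read from the sequence, FICC-Seq had 68.4% ± 4.82 of the counts at 53 and 54 (SD, n = 6), and cysteine was lower in 6 of 6 libraries, by 33.0 percentage points on average (exact sign-flip permutation p = 0.031, the smallest that 6 libraries allow, adjusted p = 0.063). In iCLIP the other loci had 21.2% ± 6.78 and cysteine was lower in 6 of 6 libraries, by 13.5 percentage points (exact sign-flip permutation p = 0.031, adjusted p = 0.063). In miCLIP, with 43.9% and 38.2% for cysteine against 47.9% and 43.5%, the gap was 4.08 and 5.27 percentage points.

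Among 22 families the mean share at 53 and 54 in FICC-Seq ranked cysteine 19th. Ranked below it were glutamine, tryptophan and initiator methionine, each with no count in part of the FICC-Seq libraries, so their means rest on fewer libraries. Tyrosine tRNAs had 82.2% ± 6.99 there and alanine tRNAs 56.0% ± 6.19 (SD, n = 6), while threonine, the family closest to cysteine in its counts, had 46.3% ± 5.04.

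Position 58 was the other main stop on cysteine tRNAs. It held 70%, 20.4% and 55.6% of the cysteine counts in FICC-Seq HEK293 and 45.7%, 11.1% and 52.4% in HAP1, and 72.1%, 64.2% and 79.2%, then 50.0%, 56.6% and 70.6% in iCLIP. Both libraries numbered 2 were the lowest FICC-Seq libraries. In miCLIP position 58 held 10.2% and 9.14%.

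The mean at position 58 was 42.5% ± 22.4 in FICC-Seq and 65.4% ± 10.7 in iCLIP (SD, n = 6 each), a difference of -22.9 percentage points (exact permutation p = 0.035, adjusted p = 0.063, and 0.045 without FICC-Seq HEK293 replicate 1). Without both libraries numbered 2 it was -9.52 percentage points (exact permutation p = 0.14), so the size of this difference rested on them. Compared with the other tRNA loci, which had 18.7% ± 2.25 at position 58 in FICC-Seq, cysteine was higher in 5 of 6 libraries, by 23.8 percentage points on average (exact sign-flip permutation p = 0.094, adjusted p = 0.14). The exception was HAP1 replicate 2, with 11.1% against 16.5%. Without the libraries numbered 2 the average excess was 36.6 percentage points. This level was not particular to cysteine, which ranked 3rd of 22 families at position 58 in FICC-Seq. Tryptophan had 54.4% ± 40.7 (SD) and serine 42.6% ± 6.25, and proline and threonine had 35.7% ± 32.4 and 35.6% ± 15.4. The tryptophan mean leaves out FICC-Seq HEK293 replicates 1 and 3 and HAP1 replicate 3, where this family had no count. Alanine had 28.1% ± 6.29 and tyrosine 3.85% ± 1.90.

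In HEK293, FICC-Seq had 33.1% ± 10.4 at 53 and 54 (SD, n = 3) and miCLIP 41.03% ± 4.00 (SD, n = 2), a difference of -7.93 percentage points (exact permutation p = 0.4, adjusted p = 0.45). At position 58 the means were 48.7% ± 25.5 and 9.69% ± 0.778, a difference of 39.0 percentage points (exact permutation p = 0.2, adjusted p = 0.26), where the smallest p possible is 0.1. Between HEK293 and HAP1 in FICC-Seq the share at 53 and 54 differed by -4.67 percentage points (exact permutation p = 0.6, adjusted p = 0.6), less than the spread between libraries.

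Between the target positions, 344 and 1002 miCLIP counts lay at 53 and 234 and 197 at 54 in replicates 1 and 2, so the 2 libraries differed in this split. FICC-Seq had 24 counts at 53 and 44 at 54 in HEK293 and 53 and 51 in HAP1, and iCLIP had 1 and 12, then 5 and 15. No test was made.

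**Figure D4:**
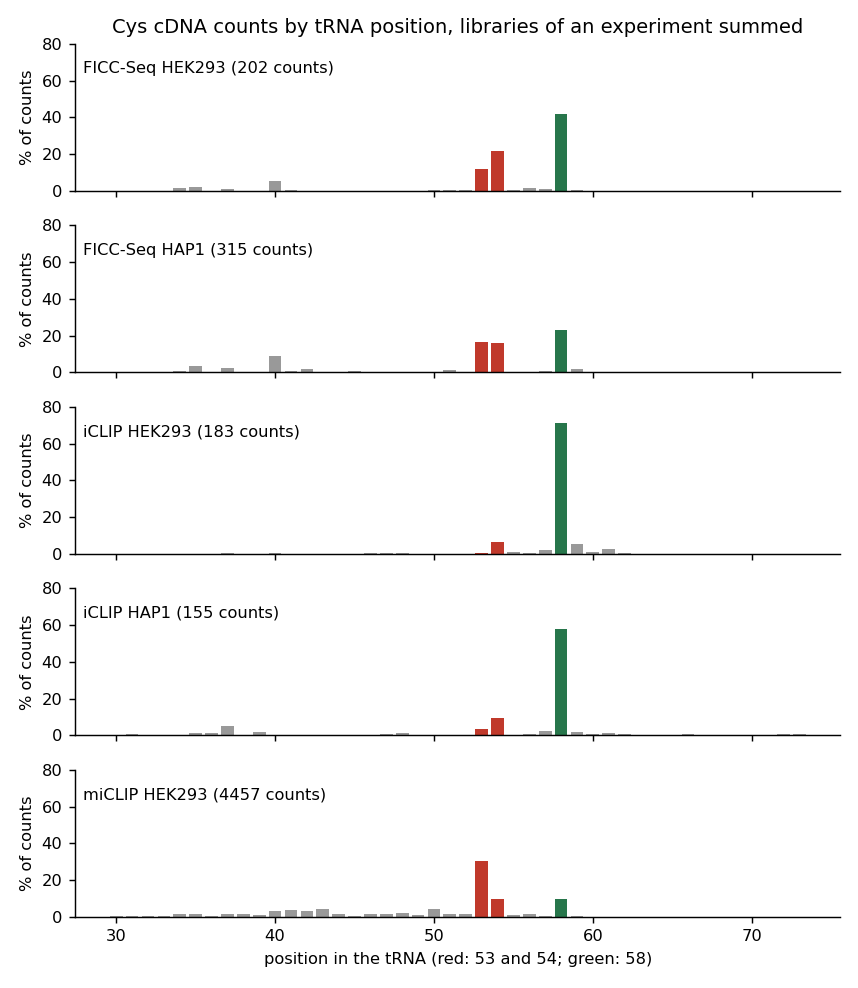
Percent of the cysteine tRNA cDNA counts at each tRNA position from 30 to 73, 1 panel per experiment with its libraries summed, with positions 53 and 54 in red and 58 in green. Position 58 is the highest bar in both iCLIP panels and in FICC-Seq, and position 53 is the highest in miCLIP.

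Upstream of the T-arm the share of stops differed strongly between libraries of one experiment. In the anticodon arm (positions 27 to 43) FICC-Seq HEK293 had 4.00%, 19.4% and 0% of its cysteine counts and HAP1 0%, 27.2% and 1.59%. In the 5′ leader, the bases before the gene that are removed when the tRNA matures, FICC-Seq HEK293 had 0%, 17.3% and 0% and HAP1 0%, 18.9% and 0%. All FICC-Seq leader counts, 17 in HEK293 and 41 in HAP1, came from the libraries numbered 2. In iCLIP the leader held 0% to 3.61%, and the anticodon arm 0% to 8.43% apart from HAP1 replicate 1 with 26.3%. The miCLIP libraries had 19.3% and 24.9% in the anticodon arm and 2.66% and 7.81% in the leader.

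The other tRNA loci moved in the same libraries. They had 1.66% of their counts in the leader in FICC-Seq HEK293 replicate 2 and 2.37% in HAP1 replicate 2, against 0.388% to 1.23% in the other FICC-Seq libraries. Before position 49, a stretch that includes the leader, these libraries had 7.07% and 11.6% for the other tRNAs and 37.8% and 56.7% for cysteine, against 0.610% to 1.63% and 0% to 4.00% in the remaining FICC-Seq libraries. In miCLIP the shares before position 49 were 31.1% and 41.4% for cysteine and 27.9% and 37.7% for the other tRNAs. These values are given as a description, and a cause of the difference between libraries was not tested.

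Leader counts stood at fixed places that differed between copies. In miCLIP the leading leader position was 7 nt before the gene at 2-2 (51 of 56 leader counts) and 2-3 (16 of 19), 8 nt before it at 8-1 (31 of 51), 5 nt before it at 9-4 (25 of 26) and 12-1 (21 of 21), 4 nt before it at 14-1 (44 of 51) and 6 nt before it at 6-1 (13 of 33) and 9-1 (8 of 14). In FICC-Seq HAP1 the same places led at 2-2 (5 of 5), 8-1 (12 of 13), 9-4 (6 of 7), 14-1 (6 of 10) and 9-1 (3 of 4). A cDNA that begins there comes from an RNA that still holds at least part of its leader.

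**Figure D5:**
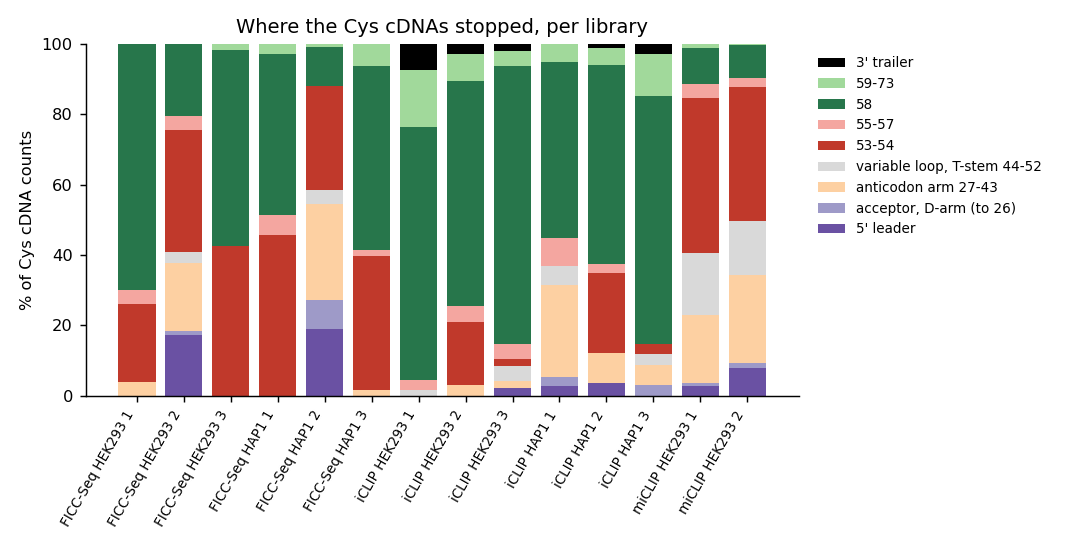
Percent of the cysteine tRNA cDNA counts in each part of the tRNA, stacked, 1 bar per library. The 5′ leader and the anticodon arm hold a visible part of the bar in FICC-Seq replicate 2 of both lines and in miCLIP, and positions 58 and 53 to 54 fill most of the other FICC-Seq bars.

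The copies did not share one pattern of stops. At 9-1 no iCLIP HEK293 count was at 53 or 54 and 10 of 12 were at 58. In iCLIP HEK293, 2-4 had 27 of 43 counts at position 58 and none at 53 or 54, and in iCLIP HAP1 18 of 25 and none, whereas in miCLIP 67 of its 126 counts were at 53 and 54 and 15.1% at 58. The copy 12-1 had no count at position 58 in FICC-Seq, of 6 counts in HEK293 and 27 in HAP1 (95% exact interval 0 to 12.8% in HAP1), and 2.66% (1.53 to 4.28) in miCLIP, where 45.8% lay at 53 and 54. Its reads after position 58 had to reach 5 bases past position 73 to be unique, whereas those after 53 or 54 did not. The part of this in its low share at 58 was not tested. The copy 21-1 had 27.5% (18.6 to 37.8) at position 58 in miCLIP, the highest share there, and 34.1% at 53 and 54.

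The share at 53 and 54 in miCLIP ranged from 22.2% at 14-1 and 31.6% at 2-2 to 58.1% at 9-1 and 61.7% at 5-1. The 3 copies with 1 sequence, 2-2, 2-3 and 2-4, had 31.6% (95% exact interval 29.2 to 34.2), 52.2% (47.8 to 56.6) and 53.2% (44.1 to 62.1), while 9-1 and 9-4 had 58.1% and 55.8%. Only 2-2 stood apart from its twins by these intervals, and the intervals of 9-1 (52.2 to 63.9) and 9-4 (49.3 to 62.2) overlapped. Reads that began after position 40 needed 16 nt to be unique at 14-1, 35 at 2-2 and 5-1, 36 at 2-3 and 42 at 2-4. The last exceeds the longest insert of 41 nt, so upstream stops could be placed unequally. In miCLIP the anticodon arm held 188 of 454 counts at 14-1 and 365 of 1375 at 2-2. It held 61 of 517 at 2-3, 4 of 126 at 2-4 and 9 of 120 at 5-1. The part of this in the shares at 53 and 54 was not tested.

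Grouped by the T-stem, the 4 copies with C50T and G62A (6-1, 9-1, 9-4 and 12-1) had 51.2% and 48.9% of their miCLIP counts at 53 and 54 in the 2 libraries, above the 40.9% and 33.8% of the 6 copies with the stem of 2-2. At position 58 they had 4.51% and 5.71% against 11.9% and 10.2%. These 4 copies include 12-1, whose reads had to pass position 73 to be unique after 58 but not after 53 or 54. In FICC-Seq the summed shares at position 58 were 43.1% (95% exact interval 30.8 to 56.0) and 41.6% (33.3 to 50.3) in HEK293, and 7.89% (2.95 to 16.4) and 28.3% (22.6 to 34.5) in HAP1, where replicate 2 gave 65 of the 76 counts of the first group. Within the second group the copies did not agree, as 2-3, 2-4 and 5-1 had 52.2%, 53.2% and 61.7% at 53 and 54 in miCLIP, above 6-1 (39.7%) and 12-1 (45.8%) of the first, and the lower summed share came from 2-2, 14-1 and 8-1. The copies of a group share sequence and library, so they are not replicates and no test was made.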

How the data were processed

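cDNA counts at crosslinked nucleotides were deposited by the authors for each of the 14 libraries, as whole numbers signed by strand, with the build hg19 per the labels. Per the study's methods, reads were processed with iCount: PCR duplicates were removed by random barcode, adaptors trimmed, and uniquely mapping reads kept after alignment with bowtie. The signed values were named other than plain counts here, so the planned edgeR test was not run. In its place, counts summed per locus were tested with limma 3.58.1 (voom, R 4.3.3) in 1 fit of 5 groups, scaled by TMM, over loci at a CPM worth at least 10 counts at the median library in at least 2 libraries and at least 15 counts in all. Shares of counts were compared by exact two-sided permutation tests (Python 3.11.15, numpy 2.4.6, scipy 1.17.1), with the Benjamini-Hochberg method and a threshold of 0.05. Folds against a group at 0 used a floor of 3 counts over the group and TMM-scaled library sizes. Totals per library ran from 7002 to 104605 counts.

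Groups came from the sample titles. Every cysteine locus was named, by a rule giving full statistics where it passed the threshold or was among the 3 highest in an experiment, and the 3 other tRNA families most alike in share were added to tyrosine and alanine. The members and lists were chosen with earlier results of these data known. The fit was tested on simulated data. Alternatives covered scaling, filter, window, single counts, weights, barcode collisions, pairing and each library left out.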

Additional observations from a re-analysis of the deposited data

Results flagged for a closer look

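Cysteine tRNA genes outside the study's table also carried counts, which entered no comparison above. A search of the genome by sequence found 28 cysteine genes with full stems and T at position 54, of which 11 are the loci described and 17 are not in the table. With 5 further genes whose stems are imperfect, the genes outside the table held 50 counts in FICC-Seq HEK293, 79 in FICC-Seq HAP1, 44 in iCLIP HEK293, 36 in iCLIP HAP1 and 1853 in miCLIP, each above the limit of 3 counts that a count of 0 allows. These were 19.8%, 20.1%, 19.4%, 18.8% and 29.4% of all cysteine counts of the experiment. One such gene with full stems, with position 54 at base 37025564 of chromosome 17 (hg19, minus strand), held 279 counts in miCLIP and 5 in FICC-Seq HEK293.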

How the results depend on the processing

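The 53 and 54 difference between FICC-Seq and iCLIP stayed positive throughout but missed the threshold with single-count positions left out (27.1 percentage points, adjusted p = 0.056) and when adjusted over all 11 tests (27.8, adjusted p = 0.055, added after seeing the data). With 1 library left out it ranged from 25.7 to 30.8 points. The position 58 difference passed with loci weighted equally (-26.7 points, exact permutation adjusted p = 0.023), ranging from -28.4 (passing, without FICC-Seq HEK293 replicate 1) to -16.6 with 1 library left out, and that in the share of tRNA counts from -0.75 to -0.60. The HEK293 against HAP1 difference at 53 and 54 turned to 0.876 points without FICC-Seq HEK293 replicate 1, with a range from -9.42 to 0.876.

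Cysteine copies called lower in FICC-Seq than iCLIP in HEK293 numbered 2 with library totals as the scale, 7 with clusters in place of loci, 9 without both FICC-Seq libraries numbered 2, 2 with FICC-Seq and iCLIP libraries only (also 2 in HAP1, 5 of the 11 copies tested, added after seeing the data), and 3 to 7 with 1 library left out. In HAP1 they numbered 2 with only the groups compared (3 of the 11 copies passed the filter there), 7 without both those libraries and 3 to 7 with 1 left out. Over all loci in HEK293, 54 of 281 were lower with library totals and 94 of 271 without both those libraries. With clusters 155 of 477 were lower there, and 53 of 208 loci with FICC-Seq and iCLIP only. In HAP1 48 of 196 loci were lower with only the groups compared, 88 of 271 without both those libraries and 50 of 208 with FICC-Seq and iCLIP only. Between the cell lines in FICC-Seq 0 were lower with clusters, with only the groups compared (5-1 not tested) and without both those libraries, and 0 to 2 with 1 left out. Over all loci 19 of 477 clusters, 20 of 185 loci and 19 of 271 loci were lower there, and 12 to 24 loci with 1 left out. The calls at 2-4 held under every alternative run. In the filtered fits on FICC-Seq and iCLIP without miCLIP, 2-4 entered only through iCLIP, so its calls there are no separate support. With median-of-ratios size factors, added after seeing the data, all loci split into 45 higher and 98 lower in HEK293 and 46 and 91 in HAP1. The cause of these changes was not tested, and the DESeq2 alternative was not run.

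The labels do not tie replicate numbers to a shared day or culture. Deviations of same-numbered FICC-Seq and iCLIP libraries correlated from 0.012 to 0.25 over tRNA loci and from 0.11 to 0.67 over the cysteine loci. Pairs with unlike numbers within a line ranged from -0.32 to 0.18 over tRNA loci. FICC-Seq replicate 3 of each line correlated best with iCLIP replicate 1, and the other FICC-Seq libraries with their own number. These values do not settle whether the libraries were paired. The main tests were run without pairing, and a replicate block was an alternative. With a replicate block, fitted without miCLIP, 5 of the 11 copies passed the filter. Of these 2 were lower in HEK293 and 2 in HAP1, the same number as on those libraries without the block. In each line they included 2-4, which had passed the filter only through iCLIP. Over all loci 52 of 208 were lower in HEK293 and 51 of 208 in HAP1. The 53 and 54 difference of 27.8 points had an adjusted p of 0.056 by an exact permutation test with the block.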
